A study of Mus musculus with 9 samples.

Results

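Interferon response genes were followed in the oviduct of CD1 mice through a list of 39 genes that interferons are known to induce. A gene was represented by a probe set annotated with its symbol alone, and by the one with the highest mean where there were several. By this rule 34 of the 39 genes were measured, of 19937 genes with such a probe set on the array. Isg15, Gbp2, Igtp and Irgm2 lay on probe sets that carry more than 1 symbol, and Ifi44 was not matched, so these 5 were not analysed here. The 9 Affymetrix arrays formed 3 groups of 3: sexually mature females in diestrus, sexually mature females in estrus, and sexually immature females aged 21 days. Progesterone from the corpora lutea is high in diestrus, whereas ovulation and mating fall in estrus. All females were of the CD1 strain and none had been given hormones to stimulate them. Each array carried total RNA of whole oviducts pooled from 5 animals, so errors and p-values describe the spread between pools. Values are log2 intensities after robust multi-array averaging (RMA), a scale on which a difference of 1 is a doubling of intensity.

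Interferons are secreted when cells sense foreign nucleic acid. Type I interferons such as the alpha, beta and epsilon forms act through a receptor of Ifnar1 and Ifnar2, and a complex that holds Stat2 and Irf9 carries the signal to the nucleus, where it binds the interferon-stimulated response element (ISRE). Interferon gamma, a product of natural killer and T cells, acts through a receptor of Ifngr1 and Ifngr2 and reaches genes through the gamma-activated site (GAS), often by way of Irf1. The induced genes encode sensors and effectors that block viral replication, GTPases that attack vacuoles holding intracellular microbes, and the proteasome and transporter parts that supply peptides to class I molecules. Interferon epsilon is made by the epithelium of the female reproductive tract without infection, and a low constant level of the response is found in many tissues.

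The promoter letters of 6 members that differed between groups before adjustment are shown, because ISRE and GAS letters are the elements that tie such genes to the pathway. Each is the stretch of 200 bases before the RefSeq start of transcription, 5′ to 3′ on the gene's strand, in build GRCm38.p6. Capitals mark ISRE letters (GAAA and GAAA with any 2 bases between them) and GAS letters (TTC and GAA with any 3 bases between them), searched on both strands.
Ifit1: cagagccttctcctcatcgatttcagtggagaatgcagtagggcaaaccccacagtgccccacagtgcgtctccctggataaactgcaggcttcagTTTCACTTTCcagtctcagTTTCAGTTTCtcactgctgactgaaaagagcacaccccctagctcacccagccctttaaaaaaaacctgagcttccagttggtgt
Ifit3: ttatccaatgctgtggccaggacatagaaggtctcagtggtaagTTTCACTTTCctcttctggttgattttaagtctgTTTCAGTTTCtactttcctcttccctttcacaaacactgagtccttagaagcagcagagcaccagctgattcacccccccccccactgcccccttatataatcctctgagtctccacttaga
Irf1: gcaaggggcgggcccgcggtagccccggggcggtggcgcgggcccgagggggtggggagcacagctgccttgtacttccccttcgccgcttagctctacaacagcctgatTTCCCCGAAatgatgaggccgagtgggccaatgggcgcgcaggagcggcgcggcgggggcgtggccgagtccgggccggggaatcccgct
Bst2: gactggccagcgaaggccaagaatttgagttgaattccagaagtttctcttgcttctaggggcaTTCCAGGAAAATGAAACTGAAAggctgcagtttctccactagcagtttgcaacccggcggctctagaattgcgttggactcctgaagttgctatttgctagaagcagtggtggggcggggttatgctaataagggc
Irgm1: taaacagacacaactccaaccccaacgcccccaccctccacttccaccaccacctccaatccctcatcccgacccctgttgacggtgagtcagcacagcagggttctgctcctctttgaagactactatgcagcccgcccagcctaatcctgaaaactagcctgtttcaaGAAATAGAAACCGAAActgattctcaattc
Psmb9: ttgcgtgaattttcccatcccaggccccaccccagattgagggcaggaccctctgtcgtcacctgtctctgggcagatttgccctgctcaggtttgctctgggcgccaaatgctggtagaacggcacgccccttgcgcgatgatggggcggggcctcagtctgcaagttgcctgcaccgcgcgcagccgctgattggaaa
They lie at chr19:34640689-34640888 (plus strand) for Ifit1, chr19:34583329-34583528 (plus strand) for Ifit3, chr11:53769814-53770013 (plus strand) for Irf1, chr8:71537473-71537672 (minus strand) for Bst2, chr11:48871421-48871620 (minus strand) for Irgm1 and chr17:34187331-34187530 (minus strand) for Psmb9. Ifit1 and Ifit3 each held 2 ISRE matches. Irgm1 held 2 that share bases, and Bst2 held 2 that share bases, the farther of which from the start overlaps 1 GAS match. Irf1 held 1 GAS match in the first of its 2 listed windows and Psmb9 held neither motif. The window of Psmb9 shares 275 of its 300 bases with that of Tap1, which is transcribed the other way. RefSeq windows of 300 bases (250 before the start and 50 after it) were found for 30 of the 39 genes. ISRE letters were present in 16 of these 30 genes, against 3.99% of all 27025 genes with a window, and GAS letters in 10 of 30, against 9.55%. A match describes these letters and is no evidence of binding.

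The tissue label was checked against epithelial markers. All 10 measured markers of oviduct epithelium, among them Pax8 of secretory cells and Foxj1 of ciliated cells, lay above the median of every array. The medians of the 9 arrays lay between 8.85 and 8.90. Arrays correlated at 0.992 to 0.996 within groups and at 0.990 to 0.995 between groups. Some arrays stood apart in markers of neighbouring tissue. The summed intensity of 12 ovarian markers was 3172 to 10222 on diestrus, 3067 to 3659 on estrus and 3121 to 10594 on immature arrays, with the high values on diestrus 2 and immature 2. For 8 smooth muscle markers it was 24190 to 40423, 25734 to 28619 and 25374 to 30034 in the same groups, and the highest was diestrus 3. That array was also highest for 8 endothelial markers (4135 to 6209, 3991 to 4415 and 4324 to 5101) and 6 uterine markers (2502 to 3597, 2400 to 2612 and 2413 to 2629). Of the uterine markers, Hoxd10 was 10.21 on diestrus 3 against at most 9.00 on the other arrays. Hoxa10, Hoxa11 and Hand2 were also highest there, whereas Foxa2 (9.69) and Hoxa13 (7.95) were not. For 6 fat cell markers the summed intensity was 1858 to 2272, 1976 to 2242 and 2171 to 3903, highest on immature 1 and next highest on immature 2. Differences were refitted without diestrus 2, diestrus 3 and immature 2, and without immature 1 and 2. Member differences with an unadjusted p under 0.05 that moved by over 1.5 times on rounded values are given below both ways. For other genes, differences without these sets of arrays are not given. The part of these tissues in the differences was not tested. In bulk tissue, fewer cells of a type and less RNA per cell cannot be told apart.

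Across the 34 measured genes most group differences were small. Of these, 20 genes lay above the median of every array on all 9 arrays, and 8 genes (Ifit1, Ifit2, Mx1, Mx2, Oas3, Rsad2, Zbp1 and Psmb8) lay below it on all 9. No detection calls were used. A value below the array median is therefore described here as not separated from background, which does not show that the gene is unexpressed. The estrus mean was the lowest of the 3 group means for 24 of 34 genes, against 26.1% of all probe sets. The diestrus mean was the highest for 15 genes and the immature mean for 16, against 34.4% and 31.6% of all probe sets. Averaged over the 34 genes, the deviation from each gene's own 9-array mean was -0.06, 0.08 and 0.11 on diestrus 1, 2 and 3, then -0.12, -0.11 and -0.04 on estrus 1, 2 and 3, and 0.06, 0.05 and 0.02 on immature 1, 2 and 3 (log2). All 3 estrus arrays were below 0, as was diestrus 1. With limma and adjustment over all 28214 probe sets, 1 gene passed a threshold of 0.05 in 1 of the 3 comparisons: Iigp1 in diestrus against immature oviduct. With arrays weighted by their quality, 5 members were called in estrus against immature, 2 in diestrus against immature and 8 in diestrus against estrus, beside 1023, 1288 and 3331 probe sets in all.

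**Figure D1:**
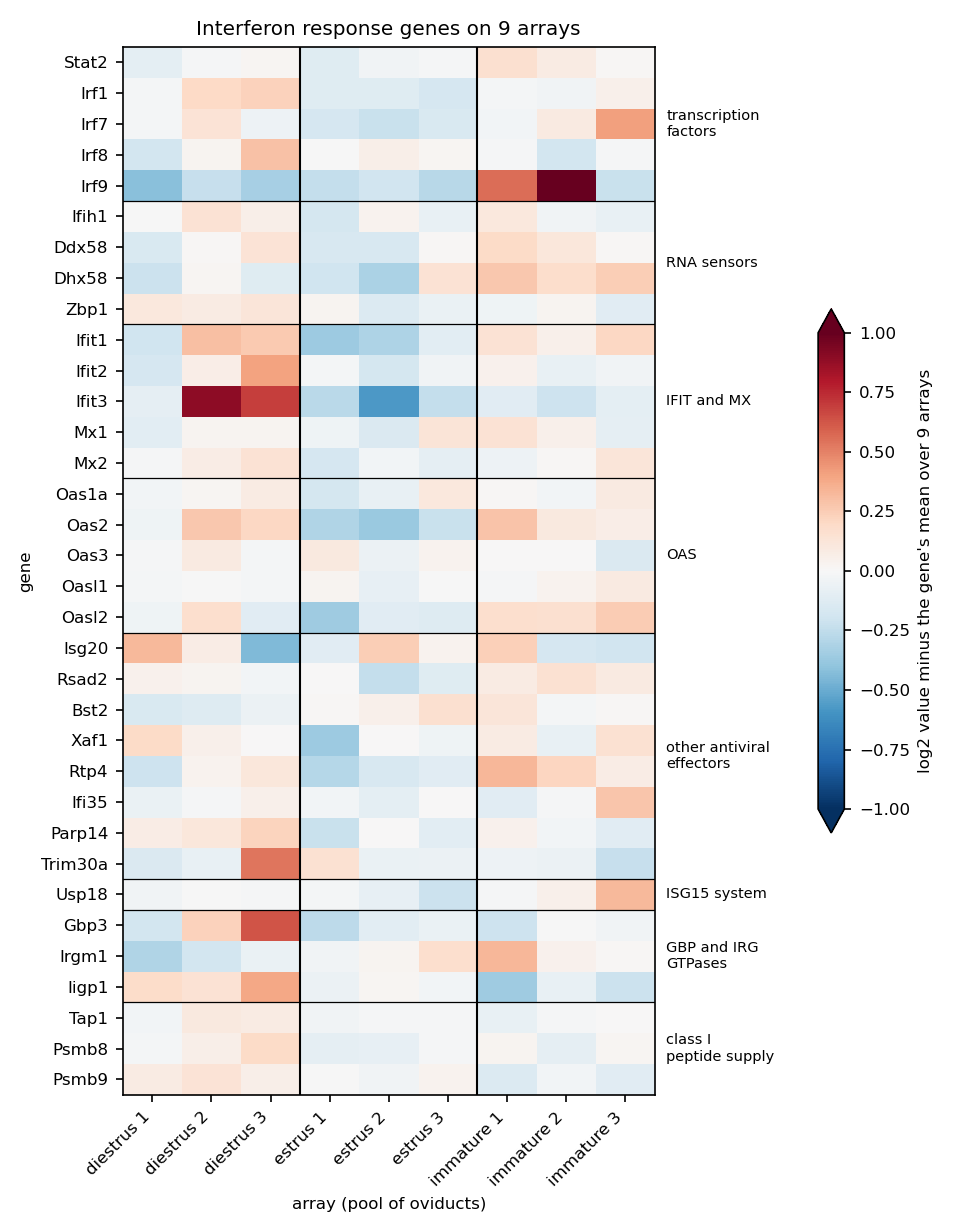
Log2 values of the 34 measured interferon response genes on 9 arrays, each minus the gene's mean over the arrays; rows are genes grouped by role, columns are arrays, and red is above and blue below the mean. The estrus columns are mostly blue, Ifit3 is red on diestrus 2 and 3, and Irf9 is red on immature 1 and 2.

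In estrus against immature oviduct, no member passed the threshold, whereas 0.0851% of all probe sets did (24 of 28214). Before adjustment 12 of the 34 genes had a p under 0.05 in limma's test, 11 of them lower and 1 higher in estrus, as were 4.27% and 2.25% of all probe sets. Both together are 35.3% of the genes, against 6.52% of all probe sets. Means were lower in estrus for 26 of 34 genes, against 45.1% of all probe sets, and the median log2 difference was -0.08, against 0.01. In 12 genes all 3 estrus arrays lay below all 3 immature arrays, as they did for 6.62% of probe sets, and in 2 they lay above, as for 3.19%. Without diestrus 2, diestrus 3 and immature 2 the median was -0.11, and without immature 1 and 2 it was -0.10. Without estrus 1 the number of genes with a p under 0.05 before adjustment was 7.

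In diestrus against immature oviduct 1 of 34 genes rose and none fell, whereas 0.294% of all probe sets rose and 0.705% fell, 1.00% together (282 of 28214). Before adjustment 9 genes had a p under 0.05, 4 higher and 5 lower (4.44% and 8.95% of all probe sets), which is 26.5% of genes against 13.4% of probe sets. Lower means were found for 17 of 34 genes, against 46.3% of all probe sets, and the median difference was 0.01, the same as over all probe sets. No overlap between the arrays was found for 5 genes that were higher and 5 that were lower in diestrus, against 7.52% and 10.9% of all probe sets. Without diestrus 2, diestrus 3 and immature 2 the median turned to -0.08. The Iigp1 call ended without any 1 array, and without diestrus 1 Ifit3 was called. The median also turned without immature 2 (-0.04), diestrus 2 (-0.01) or diestrus 3 (-0.03).

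In diestrus against estrus, which shares arrays with both comparisons above, no member passed the threshold, whereas 0.159% of all probe sets did (45 of 28214). Before adjustment 11 genes had a p under 0.05, 9 higher and 2 lower in diestrus (3.85% and 5.48% of all probe sets), which is 32.4% of genes against 9.33% of probe sets. Means were lower in diestrus for 5 of 34 genes, against 53.1% of all probe sets, and the median difference was 0.12, against -0.01. In 11 genes all 3 diestrus arrays lay above all 3 estrus arrays, as for 4.93% of probe sets, and in 2 below, as for 6.85%. Diestrus 1 held the lowest of the 3 diestrus values for 25 of the 34 genes, as it did for 31.6% of all probe sets. Leaving out diestrus 2, diestrus 3 and immature 2 leaves diestrus 1 alone in its group. Means were then lower in diestrus for 16 of 34 genes and the median was 0.03. Without estrus 3, diestrus 2 or diestrus 3 the number of genes with a p under 0.05 before adjustment was 7 each time. Means were lower in diestrus for 8 genes without diestrus 2.

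**Figure D2:**
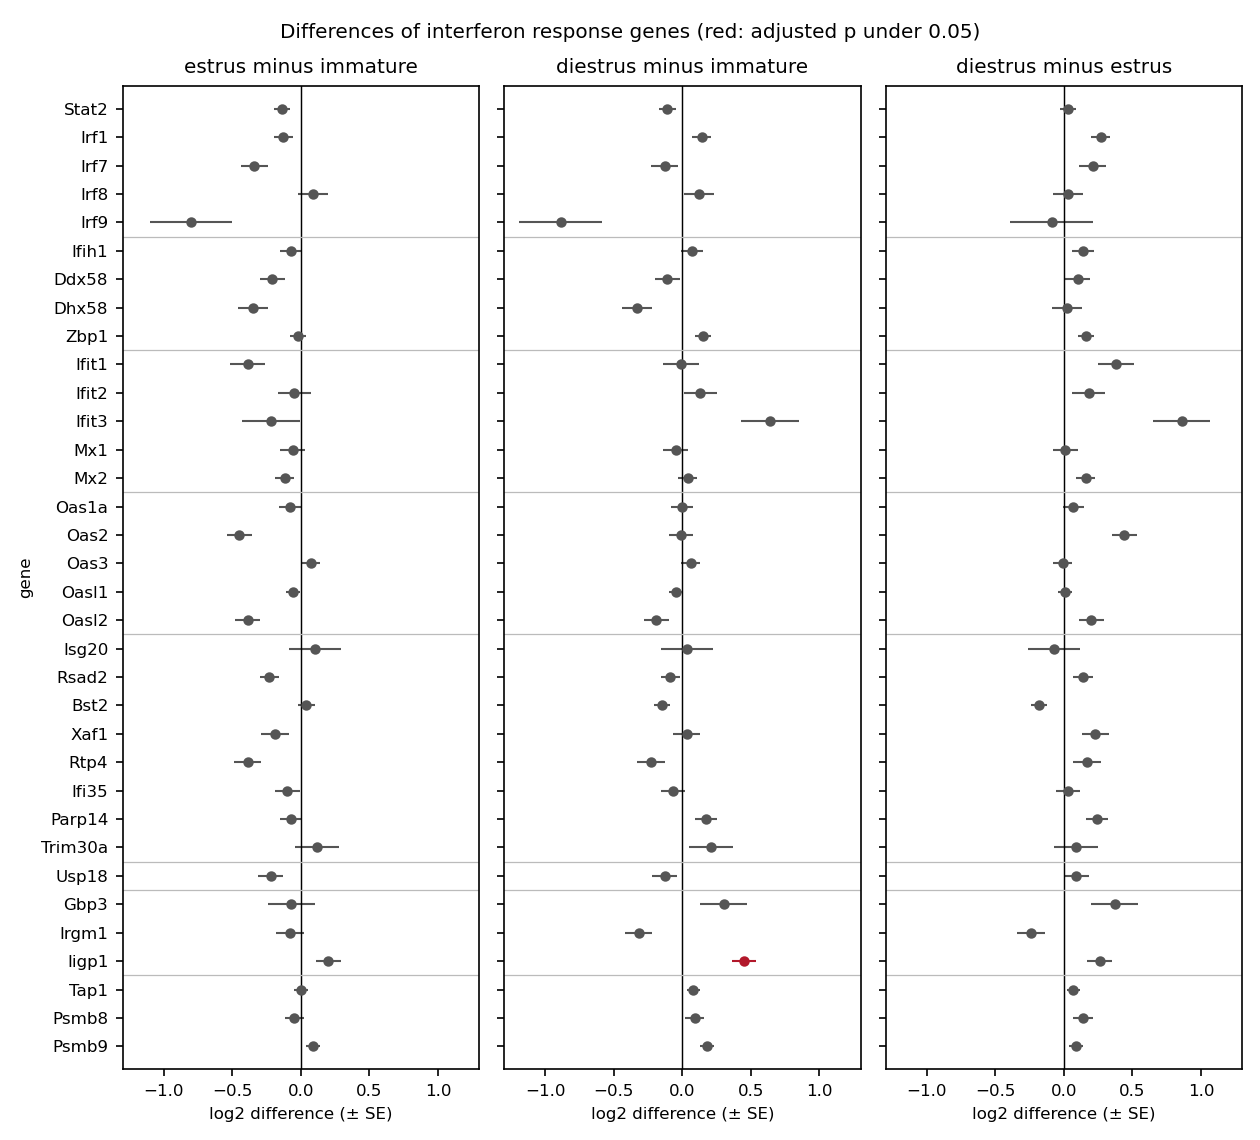
Log2 differences of the 34 genes (points, ± SE) in estrus minus immature, diestrus minus immature and diestrus minus estrus; red marks an adjusted p under 0.05. Iigp1 in diestrus minus immature is the single red point, at 0.45, and most estrus minus immature points lie left of 0.

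Among the transcription factors, Irf1 and Irf7 had their lowest values in estrus and Irf9 its highest on 2 immature arrays. Irf1, the activator that carries interferon gamma signals, had log2 values of 9.13, 9.35 and 9.38 in diestrus, 9.03, 9.03 and 8.98 in estrus, and 9.13, 9.11 and 9.20 in immature oviduct. The estrus arrays lay below all 6 others. The difference was 0.27 ± 0.07 between diestrus and estrus (SE; limma adjusted p = 0.202), and 0.12 without diestrus 2, diestrus 3 and immature 2. A second Irf1 probe set, with the lower mean, gave 8.92, 9.00 and 8.93 in diestrus and 9.03, 8.93 and 8.93 in estrus and did not separate them. Irf7, the factor that amplifies type I interferon production, had values of 9.19, 9.14 and 9.21 in estrus and 9.33, 9.45 and 9.77 in immature oviduct. These groups did not overlap, and the difference was -0.34 ± 0.10 (adjusted p = 0.514). It was -0.21 without immature 3 and -0.59 without immature 1 and 2. In diestrus Irf7 stood at 9.34, 9.50 and 9.31. Stat2, the signal transducer of type I interferon, was 9.83, 9.91 and 9.94 in estrus against 10.11, 10.03 and 9.96 in immature oviduct, a difference of -0.14 ± 0.06 (adjusted p = 0.766) that was -0.06 without immature 1 and 2. Its diestrus values of 9.85, 9.94 and 9.97 overlapped both.

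Irf9, the DNA-binding part of the same complex as Stat2, had values of 10.16, 10.35 and 10.25 in diestrus, 10.34, 10.39 and 10.30 in estrus, and 11.14, 11.93 and 10.36 in immature oviduct. Immature 1 and 2 were high, while immature 3 lay within the range of the estrus arrays. The SD of the immature arrays was 0.79, against 0.09 in diestrus and 0.04 in estrus. The differences from immature oviduct were -0.89 ± 0.30 for diestrus and -0.80 ± 0.30 for estrus (adjusted p = 0.229 and 0.668). Without immature 1 and 2 they were -0.10 and -0.01, without immature 2 alone -0.50 and -0.41, and without diestrus 2, diestrus 3 and immature 2 -0.59 and -0.41. The fat cell gene Retn was high on the same 2 arrays, at 10.76, 10.28 and 9.38 on immature 1, 2 and 3. In diestrus Retn was at most 9.36 and in estrus 9.31. Adipoq, Cidec and Fabp4 fell in the same order over the immature arrays. Plin1 (9.02, 9.23 and 8.91) and Lep (7.33, 7.37 and 7.14) were highest on immature 2 among them, as was Irf9. The summed ovarian markers were 3516, 10594 and 3121 on immature 1, 2 and 3. The part of fat or ovarian tissue in the Irf9 values was not tested. Irf8, a factor of myeloid and plasmacytoid cells, spread from 8.76 to 9.24 in diestrus, which covered the 8.94 to 9.00 of estrus and the 8.76 to 8.93 of immature oviduct.

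Of the 4 nucleic acid sensors, Dhx58 and Ddx58 had their highest means in immature oviduct and Zbp1 in diestrus. Dhx58, which encodes the regulator LGP2, had values of 8.47, 8.71 and 8.57 in diestrus, 8.49, 8.37 and 8.83 in estrus, and 8.96, 8.86 and 8.93 in immature oviduct. Every mature array lay below every immature array. The differences were -0.33 ± 0.11 for diestrus and -0.35 ± 0.11 for estrus (adjusted p = 0.223 and 0.534). On the mature arrays it lay under the array median, so that its signal there was not separated from background. Ddx58, which encodes the RNA helicase RIG-I, was 10.26, 10.42 and 10.55 in diestrus, 10.25, 10.25 and 10.42 in estrus, and 10.60, 10.52 and 10.42 in immature oviduct. The difference between estrus and immature oviduct was -0.21 ± 0.09 (adjusted p = 0.721), or -0.12 without immature 1 and 2. Diestrus values of Ddx58 overlapped the immature ones, with a difference of -0.11 ± 0.09 (limma adjusted p = 0.643). Zbp1, a sensor of Z-form nucleic acids, was 8.60, 8.58 and 8.62 in diestrus, 8.52, 8.36 and 8.43 in estrus, and 8.45, 8.52 and 8.38 in immature oviduct. The diestrus arrays lay above the other 6, by 0.16 ± 0.06 over estrus and 0.15 ± 0.06 over immature oviduct (adjusted p = 0.39 and 0.317). Zbp1 lay under the median of every array, not separated from background. Ifih1, the sensor MDA5, lay between 9.23 and 9.55 on all arrays.

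The IFIT and MX genes encode proteins that bind foreign RNA and GTPases that block viral particles. Ifit3 gave the largest positive difference among the measured members. Its values were 8.51, 9.49 and 9.29 in diestrus, 8.33, 8.02 and 8.36 in estrus, and 8.48, 8.39 and 8.50 in immature oviduct. Diestrus 2 and 3 were high, and diestrus 1 lay close to the highest immature array. The estrus and immature values and that of diestrus 1 lay under the array median, not separated from background. Diestrus differed from estrus by 0.86 ± 0.21 and from immature oviduct by 0.64 ± 0.21 in measured log2 values (limma adjusted p = 0.179 and 0.223). Without diestrus 1 these became 1.15 and 0.93 and both passed the threshold (adjusted p = 0.0207 and 0.0248), and without diestrus 2, diestrus 3 and immature 2 they became 0.27 and 0.02. Ifit3b, a near copy of Ifit3, has a probe set of its own, with values of 5.38, 5.36 and 5.62 in diestrus, 5.36, 5.36 and 5.23 in estrus and 5.36, 5.31 and 5.36 in immature oviduct. How far the Ifit3 probe set also reads that copy was not tested.

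Ifit1, with the same pair of ISRE letters in the promoter printed above, had values of 8.26, 8.76 and 8.72 in diestrus, 8.09, 8.15 and 8.35 in estrus, and 8.60, 8.51 and 8.66 in immature oviduct. The estrus arrays were all lower than the immature arrays, and diestrus 1 again stood nearer to estrus than diestrus 2 and 3 did. The differences were -0.39 ± 0.13 for estrus against immature and 0.38 ± 0.13 for diestrus against estrus (adjusted p = 0.57 and 0.34). The second of these was 0.06 without diestrus 2, diestrus 3 and immature 2. Mx2 was 7.70, 7.78 and 7.85 in diestrus, 7.54, 7.68 and 7.62 in estrus, and 7.66, 7.72 and 7.83 in immature oviduct. Diestrus and estrus differed by 0.16 ± 0.07 (adjusted p = 0.484), or by 0.09 without diestrus 2, diestrus 3 and immature 2. Ifit2 and Mx1 had no difference with an unadjusted p under 0.05. Ifit1, Ifit2, Mx1 and Mx2 all lay below the median of every array, not separated from background.

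The OAS family makes the 2-5A messengers that activate RNase L, and its OAS-like members have further roles in the response. Oas2 was low on the 3 estrus arrays alone. It had values of 9.45, 9.76 and 9.70 in diestrus, 9.19, 9.12 and 9.27 in estrus, and 9.78, 9.59 and 9.56 in immature oviduct. The estrus group lay below both others with no overlap. Estrus differed from immature oviduct by -0.45 ± 0.09 and diestrus from estrus by 0.44 ± 0.09 (limma adjusted p = 0.166 and 0.116). The second of these was 0.26 without diestrus 2, diestrus 3 and immature 2. Oasl2 was 11.67, 11.88 and 11.60 in diestrus, 11.36, 11.60 and 11.58 in estrus, and 11.88, 11.87 and 11.97 in immature oviduct. The estrus arrays lay below the immature ones, with a difference of -0.39 ± 0.09 (adjusted p = 0.23). The difference between diestrus and estrus was 0.20 ± 0.09 (adjusted p = 0.516), and 0.12 without diestrus 2 or 0.13 without estrus 1. Oas1a, Oas3 and Oasl1 had no difference with an unadjusted p under 0.05, and the Oasl1 values spanned 9.32 to 9.49.

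**Figure D3:**
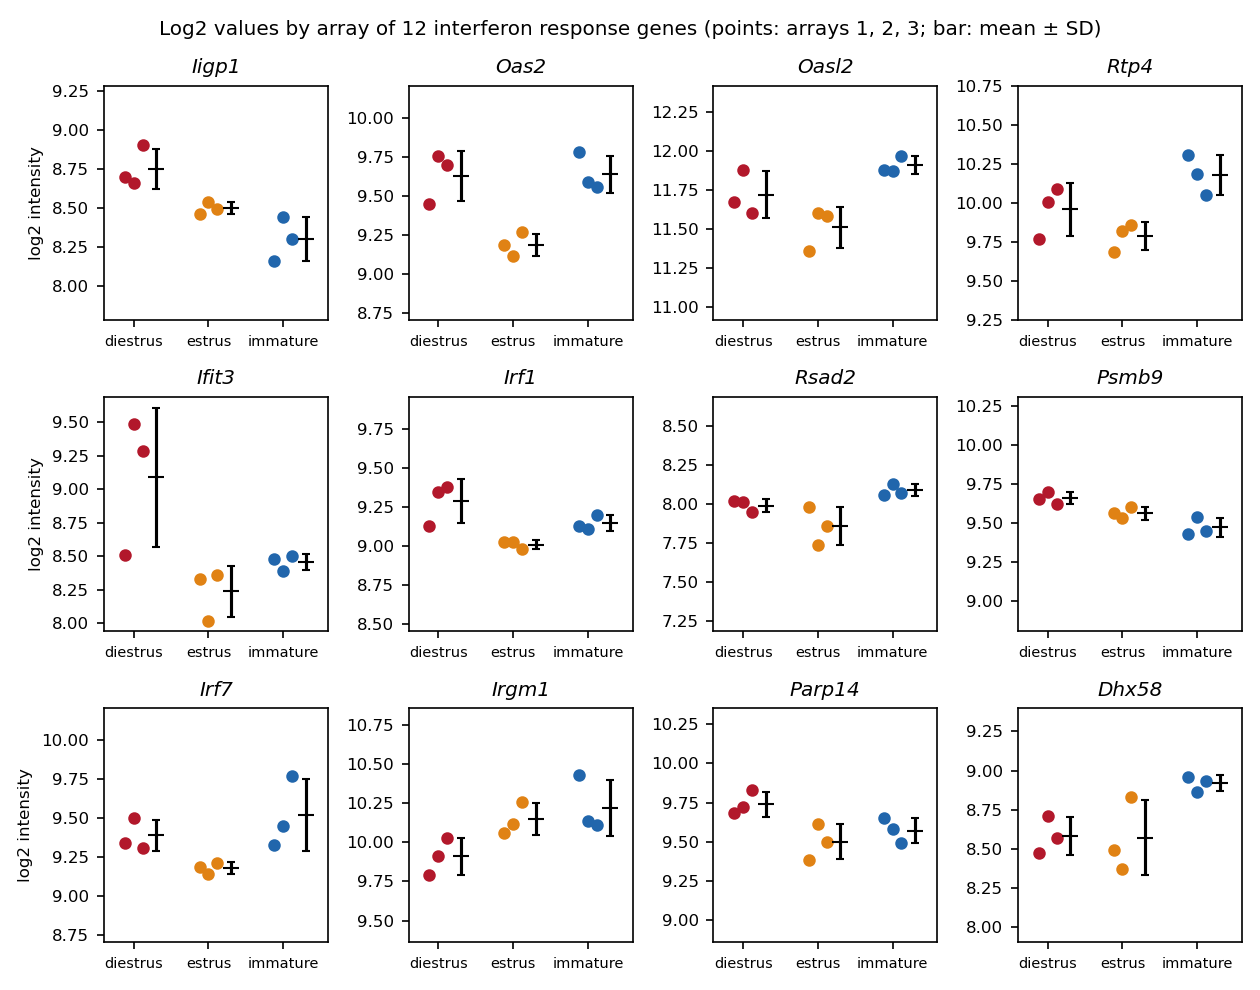
Log2 intensity on each array for the 12 interferon response genes with the smallest unadjusted p in any comparison; points are arrays 1, 2 and 3 of diestrus, estrus and immature oviduct, and the bar beside them is the mean ± SD (n = 3). Oas2 and Irf1 are low on the estrus arrays, Ifit3 is high on 2 of 3 diestrus arrays, and Iigp1 is highest in diestrus.

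Among the other antiviral effectors, Rtp4 and Rsad2 were lower in estrus than in immature oviduct on every array, and Bst2 was lowest in diestrus. Rtp4, an interferon-induced chaperone of membrane receptors, was 9.77, 10.01 and 10.09 in diestrus, 9.69, 9.82 and 9.86 in estrus, and 10.31, 10.19 and 10.05 in immature oviduct. The estrus difference was -0.39 ± 0.10 and the diestrus difference -0.23 ± 0.10 from immature oviduct (adjusted p = 0.285 and 0.35). Without immature 1 and 2 they were -0.26 and -0.09. The diestrus difference was -0.13 without diestrus 1 and -0.41 without diestrus 2, diestrus 3 and immature 2. Rsad2, which encodes viperin, was 8.02, 8.01 and 7.95 in diestrus, 7.98, 7.74 and 7.86 in estrus, and 8.06, 8.13 and 8.07 in immature oviduct. Estrus lay below immature oviduct by a difference of -0.23 ± 0.07 (adjusted p = 0.449), with Rsad2 under the median of every array and not separated from background. Bst2, the tetherin that holds budding virus at the membrane, was 10.22, 10.24 and 10.31 in diestrus, 10.38, 10.42 and 10.53 in estrus, and 10.49, 10.35 and 10.38 in immature oviduct. Every diestrus array lay below the other 6, by -0.18 ± 0.06 against estrus and -0.15 ± 0.06 against immature oviduct (adjusted p = 0.338 and 0.341). Parp14, an ADP-ribosyltransferase, was 9.68, 9.72 and 9.83 in diestrus, 9.38, 9.61 and 9.50 in estrus, and 9.65, 9.58 and 9.49 in immature oviduct. The diestrus arrays lay above the other 6, by 0.24 ± 0.08 over estrus (adjusted p = 0.305). Isg20, Xaf1, Ifi35 and Trim30a had no difference with an unadjusted p under 0.05. Trim30a had its highest value, 9.59, on diestrus 3, and the remaining 8 arrays spanned 8.83 to 9.21. Without diestrus 3 its difference between diestrus and estrus was -0.12, against 0.09 with that array.

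Usp18, the protease that removes Isg15 from proteins and damps the type I receptor, was 11.13, 11.07 and 10.94 in estrus against 11.14, 11.20 and 11.48 in immature oviduct, a difference of -0.22 ± 0.09 (adjusted p = 0.699). It was -0.12 without immature 3 and -0.43 without immature 1 and 2. The diestrus arrays had 11.12, 11.15 and 11.14.

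Of the 3 measured GTPases of the interferon gamma response, 1 passed the threshold, in 1 comparison. Iigp1, an immunity-related GTPase that loads onto parasite vacuoles, had values of 8.70, 8.66 and 8.90 in diestrus, 8.46, 8.54 and 8.49 in estrus, and 8.16, 8.44 and 8.30 in immature oviduct. The 3 groups did not overlap. Diestrus was 1.37-fold above immature oviduct, a difference of 0.45 ± 0.09 (limma adjusted p = 0.0464). Estrus was above immature oviduct by 0.20 ± 0.09 and diestrus above estrus by 0.26 ± 0.09 (adjusted p = 0.756 and 0.337), the first of which was 0.13 without immature 1. On diestrus 1 and 2 and on the estrus and immature arrays it lay under the array median, not separated from background there. The call in diestrus was lost whichever single array was left out, with differences of 0.38 to 0.52 and adjusted p of 0.059 to 0.143.

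Irgm1, which regulates that GTPase family, had values of 9.79, 9.91 and 10.03 in diestrus, 10.06, 10.12 and 10.26 in estrus, and 10.43, 10.14 and 10.11 in immature oviduct. The diestrus arrays lay below all others, by -0.24 ± 0.10 against estrus and -0.32 ± 0.10 against immature oviduct (adjusted p = 0.478 and 0.194). The second of these was -0.20 without immature 1 and 2. Gbp3, a guanylate-binding protein gene, spread over 8.59, 9.00 and 9.40 in diestrus, against 8.51 to 8.71 in estrus and 8.57 to 8.77 in immature oviduct, and its differences from these groups of 0.37 ± 0.17 and 0.30 ± 0.17 had limma adjusted p of 0.558 and 0.499. Diestrus 1 lay within the range of the other groups, whose values were under the array median and not separated from background. Diestrus 3 was the highest array, and without it the differences were 0.16 and 0.10. Diestrus 1, at 8.59, lay below the Gbp3 means of estrus (8.63) and immature oviduct (8.70).

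The genes of class I peptide supply varied little. Psmb9, a catalytic subunit of the immunoproteasome, was 9.65, 9.70 and 9.62 in diestrus, 9.56, 9.53 and 9.60 in estrus, and 9.43, 9.54 and 9.45 in immature oviduct. The diestrus arrays lay above the other 6, and the difference from immature oviduct was 0.18 ± 0.05 (adjusted p = 0.176). Tap1, the peptide transporter gene across the shared promoter, lay between 9.06 and 9.23 on the 9 arrays, and its difference between diestrus and immature oviduct was 0.08 ± 0.05 (adjusted p = 0.594). Psmb8 lay between 8.31 and 8.59. Over the 14 members without an unadjusted p under 0.05, Gbp3, Irf8, Tap1 and Psmb8 among them, differences spanned -0.19 to 0.12 for estrus against immature, -0.07 to 0.30 for diestrus against immature and -0.07 to 0.37 for diestrus against estrus.

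Other genes of the pathway were read from 6 lists outside the 39. None of the 100 measured genes in these lists passed the threshold in any comparison. Of 44 other interferon-stimulated genes, 35 had lower means in estrus than in immature oviduct (median -0.09; 45.1% of all probe sets did), 17 in diestrus than in immature oviduct (median 0.04; 46.3%) and 8 in diestrus than in estrus (median 0.09; 53.1%). At an unadjusted p under 0.05, estrus against immature oviduct gave 2 higher and 9 lower, beside 2.25% and 4.27% of all probe sets. Diestrus against immature oviduct gave 8 higher and 5 lower, beside 4.44% and 8.95%, and diestrus against estrus 12 higher and 1 lower, beside 3.85% and 5.48%. Gbp4, a guanylate-binding protein gene, was 10.56, 10.68 and 10.58 in diestrus against 11.08, 10.98 and 11.14 in estrus, a difference of -0.46 ± 0.07 (adjusted p = 0.058). It ran opposite to Oas1c, an OAS family gene, which was 8.17, 8.28 and 8.17 in diestrus against 7.68, 7.92 and 7.82 in estrus, a difference of 0.39 ± 0.07 (adjusted p = 0.0705). In both genes the groups did not overlap. Oas1c lay under the median of all 9 arrays, not separated from background.

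Of the 9 receptor and kinase genes, 8 had lower means in estrus than in immature oviduct (median -0.10), as did 45.1% of all probe sets. At an unadjusted p under 0.05, 4 were higher in diestrus than in estrus, as were 3.85% of all probe sets, and none of the 9 reached that p in the other comparisons. Ifnar2, the signalling chain of the type I receptor, was 11.27, 11.37 and 11.35 in diestrus against 10.84, 11.20 and 11.14 in estrus, a difference of 0.27 ± 0.09 (adjusted p = 0.326). Ifngr2, of the interferon gamma receptor, was 11.94, 11.92 and 11.88 in diestrus against 11.68, 11.76 and 11.68 in estrus, a difference of 0.21 ± 0.07 (adjusted p = 0.33). Among 9 interferon genes, Ifna4 and Ifna5 had the smallest unadjusted p, with differences of 0.21 ± 0.09 and 0.18 ± 0.08 between estrus and immature oviduct (adjusted p = 0.756 and 0.768), and Ifna4 lay under the median of all 9 arrays. Ifne, the tract's own interferon, named here for that role, was 8.59, 8.68 and 8.62 in diestrus, 8.77, 8.72 and 8.73 in estrus, and 9.00, 8.68 and 8.65 in immature oviduct. Its diestrus arrays lay below its estrus arrays, by -0.11 ± 0.09 (adjusted p = 0.858), with both groups under the array median and not separated from background.

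Of 13 further transcription factors and brakes, the phosphatase gene Ptpn2 had values of 9.66, 9.57 and 9.76 in diestrus, 9.86, 10.11 and 9.86 in estrus, and 9.98, 10.00 and 9.96 in immature oviduct. The differences were -0.28 ± 0.08 and -0.32 ± 0.08 (adjusted p = 0.246 and 0.11). Batf2 had the next smallest unadjusted p, with 0.14 ± 0.07 between estrus and immature oviduct (adjusted p = 0.782). Of 12 sensing genes, Unc93b1, which escorts Toll-like receptors, differed by 0.21 ± 0.07 and the adaptor gene Ticam1 by -0.34 ± 0.12 between diestrus and immature oviduct (adjusted p = 0.228 and 0.266). Of 13 class I genes, Psme2 differed by -0.18 ± 0.06 and H2-M3 by 0.20 ± 0.06 in that comparison (adjusted p = 0.203 and 0.215). H2-M3 lay under the array median in immature oviduct and on diestrus 1 and 2.

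The summed intensity of 25 leukocyte markers was 8569 to 9516 on diestrus, 7723 to 7953 on estrus and 6989 to 7632 on immature arrays, without overlap. The list held 19 markers below the median of every array, Jchain of plasma cells was the only one called, in both comparisons with immature oviduct, and 4 of 25 had lower means in diestrus than in immature oviduct (median 0.11), against 46.3% of all probe sets. Between diestrus and estrus 6 of 25 had lower means (median 0.04), against 53.1%. The mean log2 deviation of the 25 markers, which weights them equally, was 0.10, 0.04 and 0.17 on the diestrus arrays, 0.04, -0.03 and 0.02 on the estrus arrays and -0.07, -0.12 and -0.15 on the immature arrays, and here diestrus and estrus met at 0.04. Ptprc, the pan-leukocyte marker, stood at 8.93, 8.87 and 9.44 in diestrus, 8.96, 9.01 and 8.94 in estrus and 8.93, 8.76 and 8.63 in immature oviduct. For 5 markers of plasmacytoid dendritic cells, the specialised interferon producers, the sums were 2072 to 2298, 2036 to 2304 and 2045 to 2138, which overlap. The part of leukocytes in the differences of Iigp1, Psmb9 and Gbp3 was not tested. On the log2 scale of RMA no marker reads 0.

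**Figure D4:**
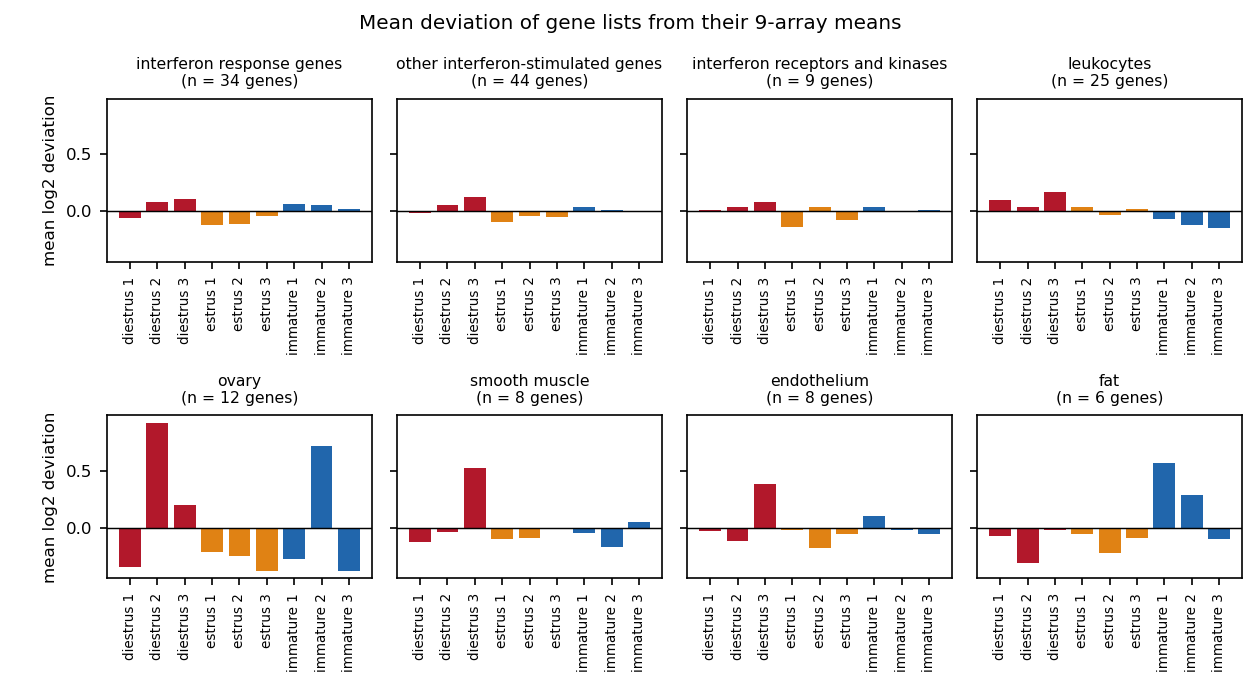
Mean log2 deviation of 8 gene lists from their genes' 9-array means, one bar per array in diestrus, estrus and immature oviduct. The 34 interferon response genes lie below 0 on all estrus arrays and on diestrus 1, while ovarian markers peak on diestrus 2 and immature 2, smooth muscle and endothelial markers on diestrus 3, and fat markers on immature 1.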

How the data were processed

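Total RNA of pooled oviducts was measured on 9 arrays. Per the submitters' processing notes, the deposited log2 values were made by RMA in Affymetrix Expression Console, and no version is given in the sources used here. RMA includes background correction, quantile normalization and a summary of probes per set. The base of the logarithm was inferred from the range of the values. Symbols were taken from GEO's platform annotation, where 21640 probe sets had 1 symbol, 1321 several and 5253 none. Its genome build was not used.

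All 28214 probe sets were fitted in limma 3.58.1 (R 4.3.3; lmFit and eBayes, two-sided, 6 residual and 3.60 prior degrees of freedom, 3 groups together) and p-values adjusted by Benjamini-Hochberg over all of them, with a threshold of 0.05. The median SE of a difference was 0.08, and precision is limited by the number of arrays. The method was tested on simulated data. Further work was done in Python 3.11.15 with matplotlib 3.10.9 and pandas 2.3.3.

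The members and lists were chosen with earlier results of these data known. Values by array are given for the 20 members with an unadjusted p under 0.05 in any comparison; of each pathway list, the 2 genes with the smallest unadjusted p are named. No set test was run. Replicate numbers are not said to mark a shared batch, and deviations of same-numbered arrays correlated at -0.29 to 0.17, above 0.1 in 2 of 9 pairs, so they were not treated as pairs. Alternatives were the replicate block, a low-intensity filter (only probe sets with a mean above the median of all means), probe sets with 1 symbol only, 3 normalizations, a trended robust prior, array weights, only the arrays compared, the mean of a gene's probe sets, and leaving out single arrays. Fits without the arrays of high ovary or muscle markers, and without those of high fat markers, were added after seeing the data. The sample labels used here mark no batch and no array date was used, so a batch cannot be told from them.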

Additional observations from a re-analysis of the deposited data

How the results depend on the processing

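Array weights changed the calls most: 1023, 1288 and 3331 probe sets were called in estrus against immature, diestrus against immature and diestrus against estrus, with 5, 2 and 8 members among them, and 11 members had lower means in diestrus than in estrus. With the replicate number as a block the counts of probe sets were 4, 121 and 13 and no member was called. The Iigp1 call ended under the block, the low-intensity filter, which removes its probe set, and with only the arrays compared (adjusted p = 0.0775 under the block and 0.119 with only those arrays). It also ended under quantile normalization again, median centring and cyclic loess (0.0658, 0.0507 and 0.0706), so 0 members were called in each of these. The filter kept 22 of the 34 genes, so its count of 16 with lower means in estrus than immature is smaller by construction. The fit was run again on the probe sets kept. It gave 7, 5 and 6 members at an unadjusted p under 0.05 in the 3 comparisons, and 12, 330 and 130 probe sets called. Probe sets with 1 symbol only gave 12, 277 and 91, cyclic loess 5, 205 and 60, and only the arrays compared 23, 85 and 0.

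Leaving out 1 array at a time gave 1 to 95, 41 to 533 and 1 to 105 probe sets called, 0, 0 to 1 and 0 to 1 members called, and 7 to 11, 6 to 11 and 7 to 13 members at an unadjusted p under 0.05. Lower means were found for 23 to 27, 15 to 20 and 4 to 8 members, and the medians ranged from -0.12 to -0.08, from -0.04 to 0.05 and from 0.09 to 0.17. Without diestrus 2, diestrus 3 and immature 2 the 3 comparisons gave 25, 25 and 16 members with lower means, and medians of -0.11, -0.08 and 0.03. In that setting, and without immature 1 and 2, a lone array is assumed to vary like the other groups, so no counts of calls are given. The share of all probe sets at an unadjusted p under 0.05 was computed in the main fit alone. Member counts at that p under other settings therefore have no share beside them. None of the 32 member differences with an unadjusted p under 0.05 turned its sign under any setting. The cause of these shifts was not tested.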
